A study of Mus musculus with 15 samples.

Results

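The 9 genes described here encode RNA-binding proteins that mark cytokine mRNAs for destruction. They are the 3 tristetraprolin family genes (*Zfp36*, *Zfp36l1* and *Zfp36l2*), the 4 Regnase genes (*Zc3h12a*, *Zc3h12b*, *Zc3h12c* and *Zc3h12d*) and the 2 Roquin genes (*Rc3h1* and *Rc3h2*). They were taken by name from a table of 51763 genes, and all 9 were found there. The rule held no measured value, but the members were chosen with earlier results of these data known. All 9 were also among the 16919 genes with enough counts to be tested, although *Zc3h12b*, with 178 counts over all libraries, passed that filter only through its level in PBS- and frHMGB1-treated cells.

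The genes were measured by bulk RNA-Seq in bone marrow-derived macrophages (BMDMs), primary macrophages matured from marrow cells with macrophage colony-stimulating factor. The marrow came from 5 wild-type female C57BL/6NTac mice aged 8 to 10 weeks and was pooled before seeding, so all 15 libraries hold cells of the same pool. Each of 5 conditions was represented by 3 libraries, and every stimulation lasted 24 h. The conditions were PBS as the unstimulated control, fully reduced HMGB1 (frHMGB1) and disulfide HMGB1 (dsHMGB1) at 5 µg/mL each, LPS at 1 µg/mL, and LPS with IFNγ at 20 ng/mL (LPS/IFNγ, the classical M1 stimulus). HMGB1 is a nuclear protein that acts as an alarm signal outside the cell, and its disulfide form is known as a ligand of Toll-like receptor 4, the receptor of LPS. Both HMGB1 proteins were recombinant and carried a calmodulin-binding tag, but frHMGB1 was made in house and dsHMGB1 was a gift from another laboratory, so redox form and preparation cannot be told apart. The methods also state that frHMGB1 was made in buffers with the reducing agent DTT, and give storage in PBS with or without it. The control was PBS and no control with DTT is described. An effect of frHMGB1 and of any DTT left with it cannot be told apart. For LPS/IFNγ the protocol text and the methods give LPS at 100 ng/mL while the treatment field gives 1 µg/mL, so a lower LPS dose and the added IFNγ cannot be told apart either. Because the libraries are technical replicates of 1 pool, the p-values below measure only the spread between cultures and libraries, not between animals. In bulk RNA, fewer cells of a type and less RNA per cell cannot be told apart.

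Tristetraprolin (TTP) and its relatives ZFP36L1 and ZFP36L2 bind the AU-rich elements of cytokine mRNAs through paired CCCH zinc fingers and recruit the CCR4-NOT complex, which removes the poly(A) tail. Regnase-1, the product of *Zc3h12a*, is an endonuclease that cuts stem-loops in the 3′ untranslated regions of translated mRNAs such as *Il6*, whereas Roquin-1 and Roquin-2 bind similar stem-loops and bring in the deadenylase. In macrophages, *Zfp36* and *Zc3h12a* are known as genes that Toll-like receptor signalling itself switches on, so that each inflammatory stimulus also raises brakes on its own cytokine mRNAs. The measurements here are of mRNA levels alone: neither the proteins nor the rate of decay was measured.

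After 24 h, *Zfp36* and *Zc3h12a* rose under every stimulus tested, least with frHMGB1 and most with LPS. Both rises with frHMGB1 were small and were no longer called when the 2 conditions were fitted alone. *Zc3h12c* rose strongly with dsHMGB1, LPS and LPS/IFNγ, whereas *Zfp36l1* and *Zfp36l2* fell with the same 3 stimuli. *Zc3h12d* fell with dsHMGB1 and LPS, though the fall with LPS was lost in 5 of 15 fits that each left out 1 library. Both Roquin genes rose by a smaller amount with LPS and LPS/IFNγ. *Rc3h2* also rose with dsHMGB1, a call lost when those 2 conditions were fitted alone. Compared with LPS, dsHMGB1 gave lower *Zfp36*, *Zc3h12a* and *Zc3h12d*, the call of *Zc3h12d* being lost in 6 of 15 fits that each left out 1 library.

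**Figure D1:**
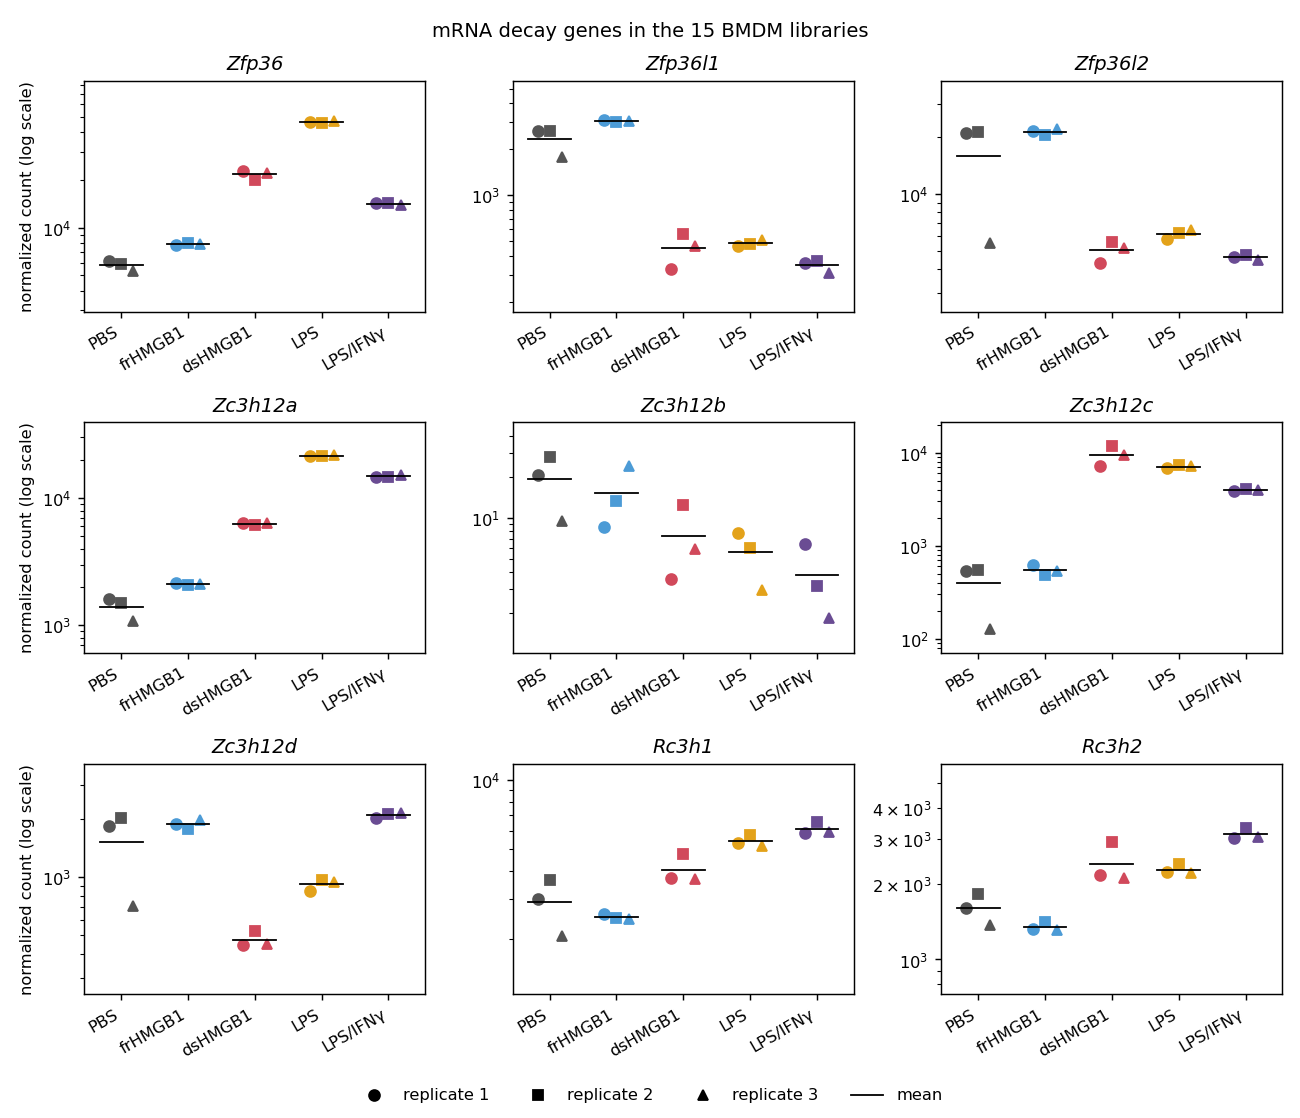
Normalized read count (log axis) of each of the 9 genes in the 15 libraries, with 1 point for each library and the libraries grouped by condition. *Zfp36* sits between 45760 and 46780 in the 3 LPS libraries, above every other condition, while *Zfp36l2* shows 1 PBS library, at 5534, far below the other two.

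The element that the TTP family reads has the core sequence TATTTAT, here in DNA letters, and it is shown here for the target mRNAs and the family members whose values are described below. In the longest coding transcript of each gene in GENCODE M21 (GRCm38), 27.4% of 20906 genes with a 3′ untranslated region held this heptamer at least once and 4.07% held it at least 3 times, counting overlapping copies. *Tnf* held 8 copies, *Csf2* 9, *Cxcl2* 7, *Il23a* 5 and *Il1b* 3. Each line below gives 30 bases of the 3′ untranslated region on the sense strand, 5′ to 3′, with every heptamer in capitals.
*Tnf*, chr17:35199678-35199707, minus strand: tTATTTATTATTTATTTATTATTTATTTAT
*Csf2*, chr11:54247325-54247354, minus strand: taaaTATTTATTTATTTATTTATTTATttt
*Cxcl2*, chr5:90905325-90905354, plus strand: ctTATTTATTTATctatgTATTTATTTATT
*Il1b*, chr2:129364802-129364831, minus strand: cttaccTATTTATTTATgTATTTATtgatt
*Il23a*, chr10:128296179-128296208, minus strand: tgatggtTATTTATtcTATTTATaaggaat
*Zfp36*, chr7:28376958-28376987, minus strand: ccttTATTTATgacgacttTATTTATtgta
*Zfp36l1*, chr12:80108422-80108451, minus strand: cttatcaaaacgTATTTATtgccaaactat
*Zfp36l2*, chr17:84184914-84184943, minus strand: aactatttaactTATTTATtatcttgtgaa
In the stretches shown, copies overlapped one another in *Tnf*, *Csf2*, *Cxcl2* and *Il1b* and stood apart in *Il23a* and *Zfp36*. The 3 family members each held 3 copies over the whole 3′ untranslated region. Among the other 6 genes, *Rc3h2* held 3 copies, *Zc3h12c* and *Rc3h1* held 2 each, and *Zc3h12a*, *Zc3h12b* and *Zc3h12d* held none. The untranslated regions of *Rc3h2*, *Zc3h12c* and *Rc3h1* were long, at 5331, 4062 and 7181 bases, and those of the latter 3 genes had 856, 260 and 2327. The median over all genes was 937 bases, and the shares above were not adjusted for length. A copy is a match of letters and was not measured as a binding site.

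The deposited counts summed to between 40934540 and 80925478 per library. PBS replicate 3 stood apart: its Pearson correlation with the other PBS libraries was 0.938 and 0.9331, against 0.9865 to 0.9928 for every other pair within a condition, and processed pseudogenes took 1.488% of its counts against 0.8046% and 0.816% in the other PBS libraries. Set against the mean of PBS replicates 1 and 2, that library differed by -2.08 log2 units in *Zc3h12c* and -1.93 in *Zfp36l2*, and 6.79% and 7.88% of all genes tested lay lower still. The difference was -1.45 for *Zc3h12d* and -0.18 for *Zfp36*, beside a median of -0.0663 over the genes tested. Results that rest on PBS are therefore given with and without PBS replicate 3 where it matters. Each gene had 1 estimate of spread over all 15 libraries, so that library also enters the SE and p of comparisons without PBS. For *Zc3h12c* between LPS/IFNγ and LPS the SE was 0.38 with it and 0.13 without it. Between dsHMGB1 and LPS, 26.4% of all genes were called with it and 48.8% without it. A comparison that did not pass is thus not judged by the spread of its own 2 groups alone. All 8 macrophage markers looked up (among them *Adgre1*, *Csf1r* and *Cd68*) passed the filter. Their summed level ran from 27000 to 27300 CPM in frHMGB1, 21900 to 26200 in PBS, 19600 to 21000 in dsHMGB1, 16100 to 16800 in LPS and 13500 to 13900 in LPS/IFNγ libraries. The largest part of this sum was *Lyz2* (9140 to 20400 CPM over all libraries). *Csf1r* ran from 1170 to 3210, *Cd68* from 1060 to 1970 and *Adgre1* from 363 to 1850 CPM, so the sum does not describe each marker. Summed fibroblast markers lay between 118 and 282 CPM, and 5 of the 6 passed the filter, *Col1a1* (53 to 134 CPM) and *Col1a2* (55.1 to 124 CPM) among them. Summed neutrophil markers lay between 1.97 and 5.56 CPM. Of these 8 genes, *S100a8* (1.69 to 5.47 CPM) and *Camp* passed the filter, while *Ly6g*, *S100a9* and *Mpo* were at 0. Of 5 T cell genes 4, *Cd3d*, *Cd3e*, *Cd3g* and *Cd8a*, were also at 0. The other one, *Cd4*, ran from 15.6 to 35.4 CPM in PBS, 30.3 to 34.7 in frHMGB1, 17 to 21.1 in dsHMGB1, 13.5 to 15.5 in LPS and 14.3 to 16.3 in LPS/IFNγ. Of 4 dendritic cell markers, *Zbtb46* and *Xcr1* passed the filter, and the summed level of the list went from 0.935 to 1.34 CPM in frHMGB1 and 1.73 to 2.77 in PBS to 3.09 to 4.28 in dsHMGB1, 7.77 to 8.48 in LPS and 13.1 to 14.2 in LPS/IFNγ. CPM scales a library by its total count, whereas the normalized counts below use a size factor. From PBS replicate 1 to LPS replicate 1 the total went from 65797491 to 56128646 and the size factor from 1.547 to 0.7736. *Rc3h2* thereby went from 37.65 to 30.59 CPM but from 1601 to 2220 normalized counts. The order of conditions in CPM, falls of the macrophage sum and *Cd4* included, thus need not hold in normalized counts. The part of the marker differences in the results below was not tested.

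*Zfp36* (chr7:28376784-28380253, minus strand), which encodes TTP itself, was detected in PBS-treated BMDMs at 6171, 5853 and 5307 normalized counts. In frHMGB1-stimulated BMDMs it reached 7786, 7947 and 7881, in dsHMGB1-stimulated BMDMs 22760, 20050 and 22100. In LPS-stimulated BMDMs it reached 46310, 45760 and 46780, and in LPS/IFNγ-stimulated BMDMs 14220, 14190 and 13860. No 2 conditions overlapped, and the order from high to low was LPS, dsHMGB1, LPS/IFNγ, frHMGB1 and PBS. Against PBS, the log2 fold change was 0.45 ± 0.07 (SE) with frHMGB1 (edgeR adjusted p = 0.00552), 1.90 ± 0.07 with dsHMGB1 (edgeR adjusted p = 1.39e-09), 3.00 ± 0.07 with LPS (edgeR adjusted p = 1.77e-11) and 1.29 ± 0.07 with LPS/IFNγ (edgeR adjusted p = 4.22e-08). These are 1.36-, 3.74-, 8.01- and 2.44-fold higher levels. Each neighbour in that order also differed from the next, and LPS alone gave 3.28-fold more *Zfp36* than LPS/IFNγ (edgeR adjusted p = 3.4e-08). The disulfide form gave more than the fully reduced form at the same dose, by 1.46 log2 units (edgeR adjusted p = 2.22e-08). The small rise with frHMGB1 was no longer called when genes with low counts were kept in the fit (edgeR adjusted p = 0.0532), protein-coding genes were tested alone (edgeR adjusted p = 0.0574) or the 2 conditions were fitted alone (edgeR adjusted p = 0.219).

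*Zfp36l1* (chr12:80107754-80113013, minus strand), a relative that binds the same element, ran the opposite way. Its normalized counts were 2623, 2642 and 1789 in PBS and 3111, 2998 and 3055 in frHMGB1. They were 331, 556.8 and 464.9 in dsHMGB1, 465.4, 481.2 and 507.3 in LPS, and 359.5, 369.4 and 311.7 in LPS/IFNγ. The PBS and frHMGB1 libraries were all high and the other 9 libraries all low, with no value in between. Against PBS the gene fell 5.21-fold with dsHMGB1 (log2 fold change -2.38, edgeR adjusted p = 3.27e-07), 4.86-fold with LPS (edgeR adjusted p = 2.57e-07) and 6.79-fold with LPS/IFNγ (edgeR adjusted p = 4.68e-08). Among these 3 stimuli the order was LPS, dsHMGB1 and LPS/IFNγ, where LPS and dsHMGB1 did not differ beyond their spread (edgeR adjusted p = 0.895). Between dsHMGB1 and LPS/IFNγ the difference of 0.38 ± 0.20 log2 units did not pass the test (edgeR adjusted p = 0.14), although it did without PBS replicate 3 (0.39, edgeR adjusted p = 0.0108), and the groups overlapped. With frHMGB1 the log2 fold change was 0.38 ± 0.19 (edgeR adjusted p = 0.342).

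*Zfp36l2* (chr17:84183931-84187947, minus strand), the third relative, was the most abundant of the family per length in resting cells. Its PBS libraries held 21030, 21200 and 5534 normalized counts, and its frHMGB1 libraries 21430, 20500 and 22020. The counts were 4296, 5602 and 5182 in dsHMGB1, 5811, 6251 and 6423 in LPS, and 4640, 4747 and 4451 in LPS/IFNγ. PBS replicate 3 thus lay among the stimulated libraries, whereas PBS replicates 1 and 2 lay with frHMGB1. The log2 fold change was -1.66 ± 0.35 with dsHMGB1 (edgeR adjusted p = 0.00169), -1.37 with LPS (edgeR adjusted p = 0.0032) and -1.79 with LPS/IFNγ (edgeR adjusted p = 0.000637). Without PBS replicate 3 these became -2.07, -1.79 and -2.20, with edgeR adjusted p = 1.45e-13, 6.48e-13 and 3.07e-14. With all PBS libraries but each pair of conditions fitted alone, the first 2 falls just missed the threshold (edgeR adjusted p = 0.0512 and 0.0659). The fall did not rest on PBS alone, since dsHMGB1 was also below frHMGB1, with a log2 fold change of -2.08 and no overlap (edgeR adjusted p = 0.000322). With frHMGB1 against PBS the log2 fold change was 0.42 ± 0.35 (edgeR adjusted p = 0.614), and 0.02 without PBS replicate 3.

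**Figure D2:**
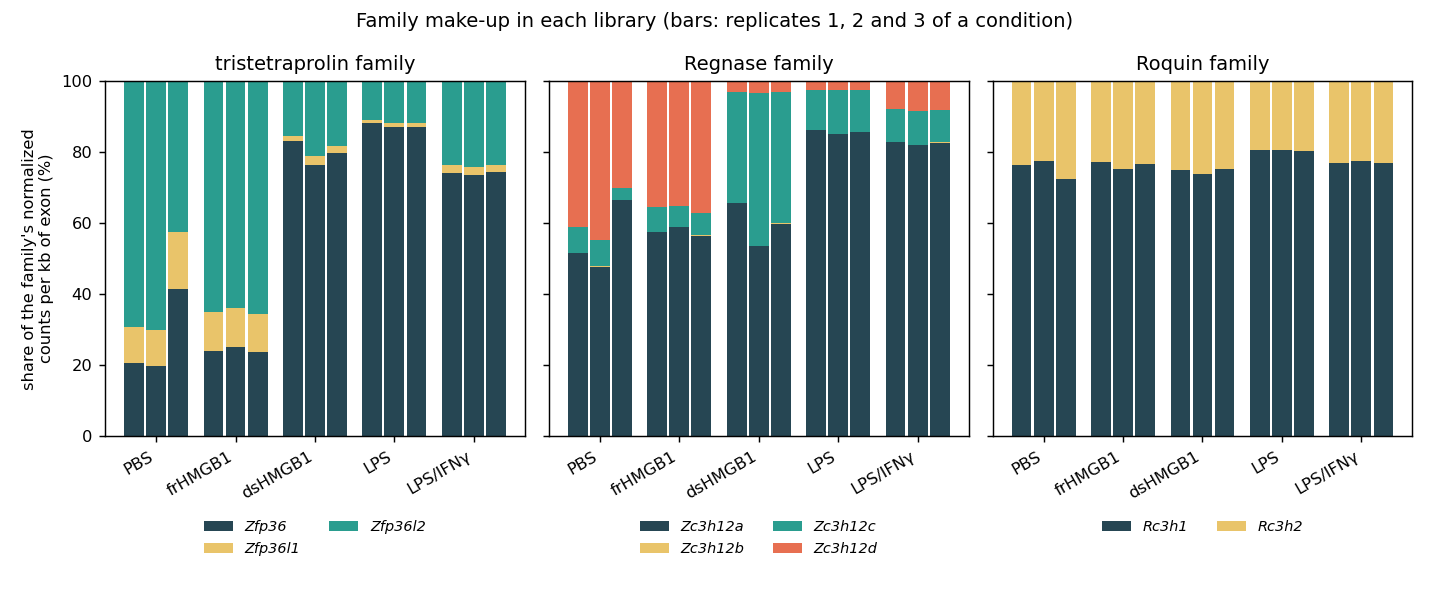
Share of each gene in its family's summed normalized count per kb of exon (percent, from 0 to 100), with 1 stacked bar for each library and 1 panel for each family. The *Zfp36* part of the bar grows from a mean of 27.2% in PBS to 79.8% in dsHMGB1 and 87.5% in LPS, and *Zc3h12c* takes its largest part, 37.2%, in dsHMGB1.

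The members of a family can be set against each other per kb of exon, on the scale of normalized counts. By that measure, *Zfp36* made up 27.2% ± 12.3 (SD, n = 3) of the TTP family mRNA in PBS-treated and 24.3% ± 0.731 in frHMGB1-stimulated BMDMs, where *Zfp36l2* led with 60.5% ± 15.7 and 64.7% ± 0.832. The order was turned round in the other conditions: *Zfp36* reached 79.8% ± 3.33 with dsHMGB1, 87.5% ± 0.535 with LPS and 74.1% ± 0.472 with LPS/IFNγ. The family total was highest with LPS, at 15250 ± 194 normalized counts per kb, followed by frHMGB1 at 9328 ± 217, dsHMGB1 at 7811 ± 231, PBS at 6962 ± 2830 and LPS/IFNγ at 5484 ± 108. The place of PBS in this order rests on replicate 3, whose total was 3695 against 8614 and 8576 in the other PBS libraries. Without it the PBS mean was 8595, above every dsHMGB1 library (7551 to 7993) and every LPS/IFNγ library (5360 to 5559) and below every frHMGB1 and LPS library, and the PBS share of *Zfp36* was 20.2%. These shares and totals are a description with no test.

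*Zc3h12a* (chr4:125118423-125127840, minus strand), the gene of Regnase-1, was present at 1609, 1508 and 1092 normalized counts in PBS and at 2148, 2079 and 2101 in frHMGB1. It reached 6388, 6128 and 6395 in dsHMGB1, 21330, 21610 and 21880 in LPS, and 14770, 14720 and 15140 in LPS/IFNγ. The 5 conditions did not overlap. Against PBS the gene was 1.5-fold higher with frHMGB1 (log2 fold change 0.58 ± 0.12, edgeR adjusted p = 0.012), 4.48-fold higher with dsHMGB1 (2.16 ± 0.12, edgeR adjusted p = 1.95e-08), 15.4-fold higher with LPS (3.94 ± 0.12, edgeR adjusted p = 6.23e-11) and 10.6-fold higher with LPS/IFNγ (3.40 ± 0.12, edgeR adjusted p = 1.78e-10). The level with dsHMGB1 was 3.43-fold below that with LPS (edgeR adjusted p = 1.09e-06) and 2.36-fold below that with LPS/IFNγ (edgeR adjusted p = 8.63e-06). LPS/IFNγ gave 1.45-fold less than LPS (edgeR adjusted p = 0.0113). As for *Zfp36*, the rise with frHMGB1 was lost when protein-coding genes were tested alone (edgeR adjusted p = 0.0782) or the 2 conditions were fitted alone (edgeR adjusted p = 0.3).

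*Zc3h12c* (chr9:52111344-52168572, minus strand), the gene of Regnase-3, was the only member whose mean was highest with dsHMGB1. It had 530.8, 548.6 and 126.5 normalized counts in PBS and 616.8, 490.5 and 532.8 in frHMGB1. In dsHMGB1 it had 7180, 11770 and 9418, in LPS 6787, 7401 and 7148, and in LPS/IFNγ 3866, 4070 and 3940. The gene thus lay between 490.5 and 616.8 in 5 of the 6 PBS and frHMGB1 libraries and between 3866 and 11770 in the other 9, but the dsHMGB1 and LPS libraries overlapped. Against PBS it was 23.5-fold higher with dsHMGB1 (log2 fold change 4.55 ± 0.38, edgeR adjusted p = 1.47e-06), 17.6-fold higher with LPS (edgeR adjusted p = 2.17e-06) and 9.82-fold higher with LPS/IFNγ (edgeR adjusted p = 1.25e-05). Leaving out PBS replicate 3, the dsHMGB1 value was 17.5-fold. Set against frHMGB1 at the same dose, dsHMGB1 gave a 17.3-fold higher level (edgeR adjusted p = 3.26e-06), whereas frHMGB1 and PBS did not differ beyond their spread (0.44 log2 units, edgeR adjusted p = 0.635).

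The excess of *Zc3h12c* with dsHMGB1 over LPS, 0.41 ± 0.38 log2 units, did not pass the test (edgeR adjusted p = 0.421). It passed without PBS replicate 3 (edgeR adjusted p = 0.00533) and when the 2 conditions were fitted alone (edgeR adjusted p = 0.0207). Over LPS/IFNγ the excess was 2.39-fold (edgeR adjusted p = 0.0195), a call that was lost without dsHMGB1 replicate 2 or without any 1 of the LPS/IFNγ libraries (edgeR adjusted p up to 0.0779). In the family total per kb, *Zc3h12c* made up 37.2% ± 6.08 with dsHMGB1, 11.9% ± 0.374 with LPS and 5.89% ± 2.30 with PBS. *Zc3h12a* made up 59.7% ± 6.10, 85.6% ± 0.503 and 55.2% ± 9.95 of the same totals. The Regnase total went from 918 ± 301 normalized counts per kb in PBS to 3685 ± 301 with dsHMGB1, 6249 ± 89.4 with LPS/IFNγ and 8761 ± 140 with LPS, and these ranges did not overlap.

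*Zc3h12d* (chr10:7832470-7870396, plus strand), the gene of Regnase-4, was counted at 1824, 2017 and 702.9 in PBS and at 1878, 1761 and 1963 in frHMGB1. It was counted at 444, 525.3 and 451.4 in dsHMGB1, at 848, 965.4 and 935.2 in LPS, and at 2007, 2114 and 2133 in LPS/IFNγ. It was thus lowest with dsHMGB1 and intermediate with LPS, and its LPS/IFNγ libraries lay in or just above the range of PBS replicates 1 and 2. The fall with dsHMGB1 was 3.20-fold against PBS (log2 fold change -1.68 ± 0.29, edgeR adjusted p = 0.000302) and 4.40-fold against LPS/IFNγ (edgeR adjusted p = 8.77e-05), and in both the groups did not overlap. Cells given LPS/IFNγ held 2.28-fold more than those given LPS (edgeR adjusted p = 0.00644), opposite to *Zfp36*. The fall with LPS against PBS (-0.73 ± 0.29, edgeR adjusted p = 0.0247) overlapped with PBS replicate 3 and was lost in 5 of 15 fits that each left out 1 library (edgeR adjusted p up to 0.122), and it was -1.08 without PBS replicate 3. The 1.93-fold lower level with dsHMGB1 than with LPS (edgeR adjusted p = 0.0346) was lost in 6 of 15 such fits (edgeR adjusted p up to 0.105).

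*Zc3h12b* (chrX:95711678-95932637, plus strand), the gene of Regnase-2, was barely detected, with 2 to 44 counts per library. Its normalized counts were 20.69, 27.75 and 9.372 in PBS-treated BMDMs. They ran from 8.552 to 23.73 with frHMGB1, from 3.559 to 12.47 with dsHMGB1, from 2.941 to 7.756 with LPS and from 1.828 to 6.363 with LPS/IFNγ. All LPS and LPS/IFNγ libraries lay below all PBS libraries, with log2 fold changes of -1.81 and -2.40. Since the gene entered the test only through its level in PBS and frHMGB1, lower values elsewhere are given as a description, with no test. At this depth it made up at most 0.314% of the Regnase family per kb in any library.

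The 2 Roquin genes moved together and by less than the leading members of the other families. *Rc3h1* (chr1:160906418-160974978, plus strand) had 3010, 3635 and 2063 normalized counts in PBS, 2591, 2472 and 2467 in frHMGB1, and 3716, 4731 and 3684 in dsHMGB1. It had 5303, 5764 and 5151 in LPS and 5873, 6537 and 5899 in LPS/IFNγ, both above every library of the other 3 conditions. The increase was 1.86-fold with LPS (log2 fold change 0.90 ± 0.18, edgeR adjusted p = 0.00148) and 2.10-fold with LPS/IFNγ (edgeR adjusted p = 0.00025). With dsHMGB1 the difference of 0.48 ± 0.18 missed the threshold (edgeR adjusted p = 0.0523), although the groups did not overlap, and it passed with DESeq2 (DESeq2 adjusted p = 0.0183) and without PBS replicate 3 (edgeR adjusted p = 0.0475). LPS/IFNγ stood above LPS by 0.18 ± 0.18 log2 units with no overlap, which did not pass the test (edgeR adjusted p = 0.452) but passed when the 2 conditions were fitted alone (0.17, edgeR adjusted p = 0.00529).

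*Rc3h2* (chr2:37370069-37422903, minus strand) had 1601, 1818 and 1367 normalized counts in PBS, 1322, 1409 and 1308 in frHMGB1, and 2166, 2920 and 2104 in dsHMGB1. It had 2220, 2385 and 2211 in LPS and 3039, 3320 and 3075 in LPS/IFNγ, the highest of the 5 conditions. It rose 1.5-fold with dsHMGB1 (edgeR adjusted p = 0.00529, and 0.0921 with the 2 conditions fitted alone), 1.42-fold with LPS (edgeR adjusted p = 0.017) and 1.97-fold with LPS/IFNγ (edgeR adjusted p = 7.39e-05). LPS/IFNγ stood 1.38-fold above LPS (edgeR adjusted p = 0.02), a call lost without any 1 library of those conditions (edgeR adjusted p up to 0.112), and dsHMGB1 and LPS did not differ beyond their spread (edgeR adjusted p = 0.571). *Rc3h1* made up 72.4% to 77.6% of the Roquin mRNA per kb in all libraries but those of LPS, where it made up 80.2% to 80.7%. The family total went from 338 ± 81.4 normalized counts per kb in PBS to 700 ± 41 in LPS/IFNγ.

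Counted over the set, frHMGB1 changed 2 of the 9 genes against PBS, *Zfp36* and *Zc3h12a*, both higher. Among all genes tested in this comparison, 7% were called, 1.31% higher and 5.69% lower. None of the 9 passed a log2 fold change of 2, the cut-off used in the study, which 7.44% of all genes passed. When PBS replicate 3 was left out, the count was 4 of 9, *Rc3h1* and *Rc3h2* then being lower, and 17.5% of all genes were called.

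With dsHMGB1, 7 of the 9 genes were called against PBS, 4 higher (*Zfp36*, *Zc3h12a*, *Zc3h12c* and *Rc3h2*) and 3 lower (*Zfp36l1*, *Zfp36l2* and *Zc3h12d*), where 47.4% of all genes were called, 23.3% higher and 24.2% lower. A log2 fold change of 2 was passed by 3 of 9 genes and by 13.2% of all genes. Without PBS replicate 3, the 8 members other than *Zc3h12b* were called, against 58.8% of all genes. Their median log2 fold change over all libraries was 0.53, and that of all genes tested -0.10.

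With LPS, the 8 members other than *Zc3h12b* were called against PBS, 5 higher and 3 lower, where 62.9% of all genes were called, 26.7% higher and 36.2% lower. *Zc3h12b* was also called lower, but it is set apart because its PBS and frHMGB1 levels alone brought it past the filter. The cut-off of 2 was passed by 4 of 9 genes (*Zfp36*, *Zfp36l1*, *Zc3h12a* and *Zc3h12c*) and by 24.9% of all genes, and without PBS replicate 3 the test called the same 8 genes and 71.2% of all genes. Without PBS replicate 2 *Zc3h12d* was lost. With LPS/IFNγ, 7 of the 8 members other than *Zc3h12b* were called, 5 higher and 2 lower, where 60.3% of all genes were called, 29% higher and 31.2% lower. *Zc3h12d*, at 0.46 ± 0.29 log2 units, was the exception (edgeR adjusted p = 0.22). With *Zc3h12b* set apart, the cut-off was passed by *Zfp36l1*, *Zc3h12a* and *Zc3h12c*, and by 21.8% of all genes. Without PBS replicate 3 the test called 7 of the 8 and 67.7% of all genes. The comparisons with PBS share their control libraries, so their counts are not independent.

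The 2 redox forms at the same dose differed in 8 of the 9 genes, 5 higher and 3 lower with dsHMGB1, where 50.8% of all genes were called, 27.7% higher and 23.1% lower. The exception was *Zc3h12b*. The largest of these differences were those of *Zc3h12c* (4.11 log2 units) and *Zfp36l1* (-2.76), and 3 of 9 genes passed the cut-off against 17.9% of all genes. The count was 8 of 9 without PBS replicate 3, against 68.7% of all genes.

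Between dsHMGB1 and LPS, 3 of 9 genes were called, all lower with dsHMGB1 (*Zfp36*, *Zc3h12a* and *Zc3h12d*), where 26.4% of all genes were called, 15.8% higher and 10.6% lower. No member passed the cut-off of 2, which 8.36% of all genes did. Leaving out PBS replicate 3, 6 of 9 genes and 48.8% of all genes were called. Between dsHMGB1 and LPS/IFNγ, 5 of 9 genes were called, 2 higher with dsHMGB1 (*Zfp36* and *Zc3h12c*) and 3 lower (*Zc3h12a*, *Zc3h12d* and *Rc3h1*), where 33.2% of all genes were called, 16.5% higher and 16.7% lower. *Zc3h12d* alone passed the cut-off, with 6.39% of all genes, and without PBS replicate 3 the test called 7 of 9 and 53.3% of all genes. With any 1 LPS/IFNγ library left out the test called 3, and the call of *Rc3h1* was lost in 5 of 15 fits that each left out 1 library (edgeR adjusted p up to 0.107). The doses of dsHMGB1 and LPS are not matched, so these values compare the conditions as applied.

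Between LPS/IFNγ and LPS, 4 of 9 genes were called, 2 higher with LPS/IFNγ (*Zc3h12d* and *Rc3h2*) and 2 lower (*Zfp36* and *Zc3h12a*), where 25.7% of all genes were called, 16.3% higher and 9.36% lower. None passed the cut-off, against 9.09% of all genes. Without PBS replicate 3, 7 of 9 genes and 49.4% of all genes were called, *Zfp36l1*, *Zfp36l2* and *Zc3h12c* being added, all lower with LPS/IFNγ (edgeR adjusted p = 0.00541, 0.000125 and 1.15e-05).

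The mRNAs that these proteins are known to destroy were followed beside them, from lists of textbook targets. The list for TTP held 16 genes including *Zfp36* itself, whose mRNA TTP binds, and 14 of these carried the TATTTAT heptamer shown above, 12 of them at least 3 times. All 16 were higher with LPS than with PBS, 15 with dsHMGB1, 14 with LPS/IFNγ and 5 with frHMGB1, where 62.9%, 47.4%, 60.3% and 7% of all genes tested were called in either direction. The median log2 fold change over the list was 9.62, 6.81, 6.40 and 0.29 in that order, beside -0.21, -0.10, -0.12 and -0.01 for all genes tested. For LPS, dsHMGB1 and LPS/IFNγ, genes absent from PBS were entered at their lower bound. The frHMGB1 median is over 14 of the 16 genes, since genes with at most 3 counts in both groups were left out. The mRNAs of the decay protein and of its listed targets stood high in the same libraries. The list was chosen with earlier results of these data known, so this is a description, and a link between them was not tested.

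*Tnf*, the best-known target of TTP, was counted at 658.2, 622.4 and 838.8 in PBS and at 1917, 2036 and 1832 in frHMGB1. It reached 182900, 164600 and 168700 in dsHMGB1, 478800, 514800 and 512400 in LPS, and 251100, 260300 and 262100 in LPS/IFNγ. The conditions did not overlap, and the dsHMGB1 level was below that of LPS by 1.54 log2 units (edgeR adjusted p = 1.83e-07) and below that of LPS/IFNγ by 0.58 (edgeR adjusted p = 0.000356). *Il23a*, a subunit of interleukin 23, was at 0 in all PBS libraries and reached 291.8, 202.5 and 174.8 in dsHMGB1, 3727, 3720 and 4260 in LPS, but 50.91, 48.41 and 52.09 in LPS/IFNγ. Taking 3 counts over the PBS group as the floor, these levels were at least 296-, 5180- and 67.1-fold higher than in PBS. *Csf2*, with the most copies of the heptamer, was at 0 in every PBS and frHMGB1 library and averaged 25.56 ± 6.432 with dsHMGB1, 651.3 ± 68.48 with LPS and 31.21 ± 5.14 with LPS/IFNγ.

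**Figure D3:**
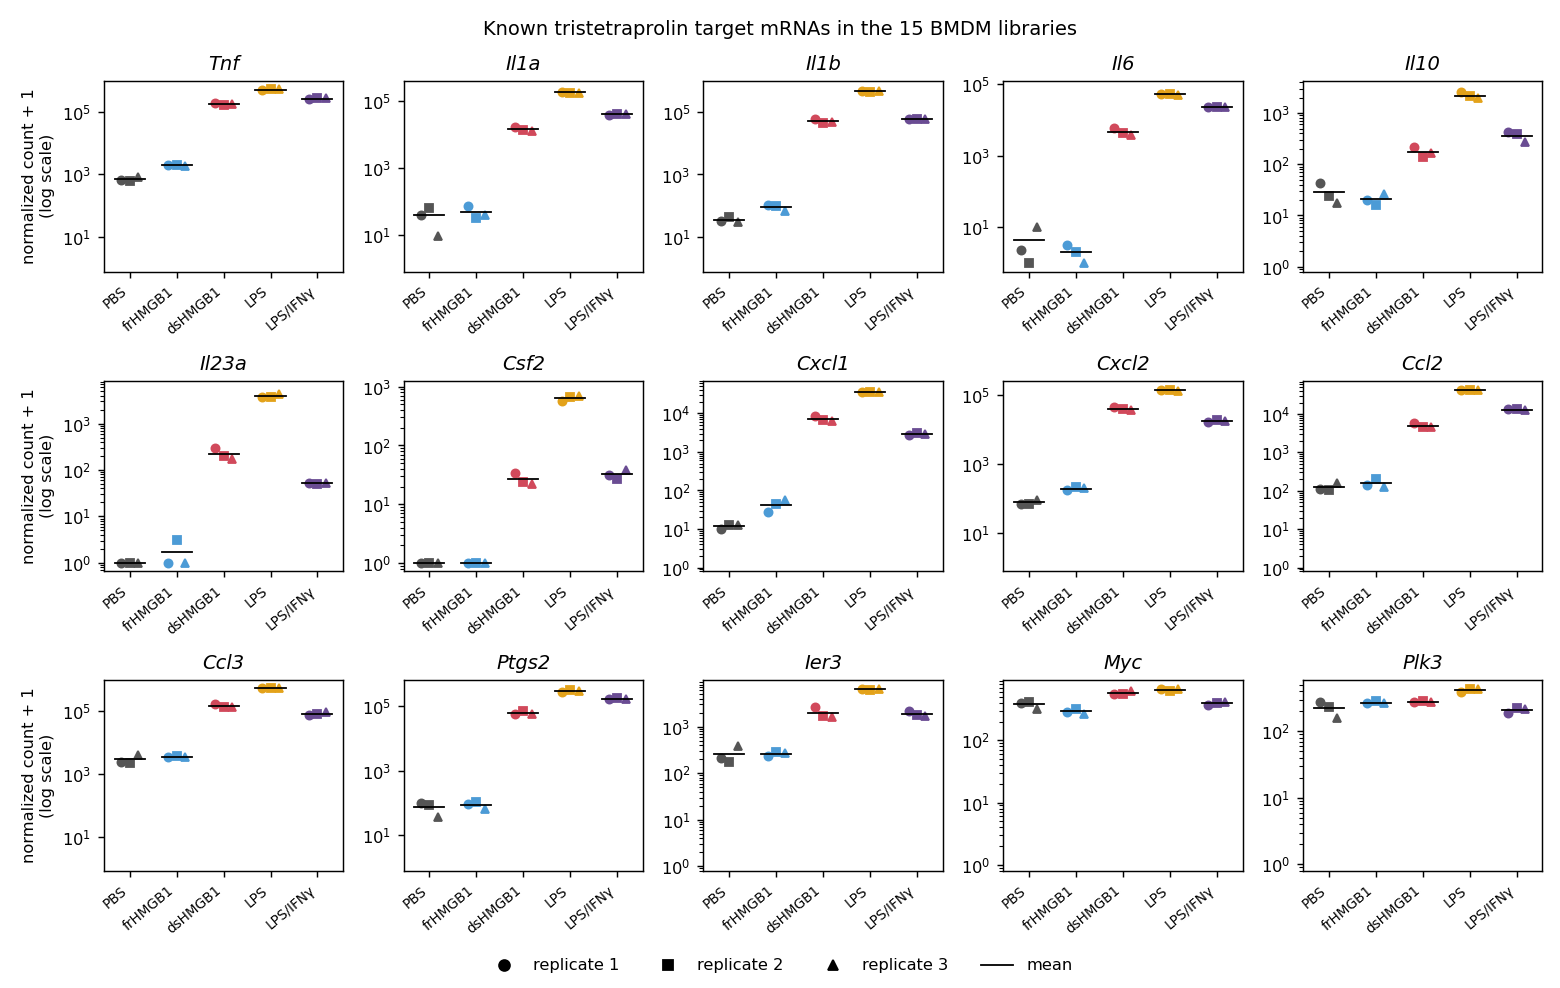
Normalized read count plus 1 (log axis) of 15 TTP target mRNAs in each library, coloured by condition. The mean of the LPS libraries is the highest of the 5 conditions for all 15 targets, with *Tnf* between 478800 and 514800.

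Between the stimuli, 14 of the 16 TTP targets were lower with dsHMGB1 than with LPS, where 10.6% of all genes were, and the remaining pair, *Myc* and *Plk3*, had log2 fold changes of -0.18 and -0.57 that did not pass the test (edgeR adjusted p = 0.536 and 0.052). All 16 were lower with LPS/IFNγ than with LPS, where 9.36% of all genes were, with a median log2 fold change of -1.96. Against LPS/IFNγ, dsHMGB1 gave 6 higher and 6 lower, beside 16.5% and 16.7% of all genes, *Cxcl2* being higher by 1.17 (edgeR adjusted p = 1.96e-06) and *Il6* lower by 2.30 log2 units (edgeR adjusted p = 8.5e-05). *Zfp36* itself was in the list and, like the other 15 targets, had its highest mean with LPS.

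For Regnase-1, 13 of 15 listed targets had enough counts, *Il2* and *Calcr* being below the filter, and 1 of the 13 was *Zc3h12a* itself. Of these, 10 were higher with dsHMGB1, 11 higher and 1 lower with LPS, and 10 higher and 1 lower with LPS/IFNγ than with PBS, where 47.4%, 62.9% and 60.3% of all genes were called in either direction. Without *Zc3h12a* the counts higher were 9, 10 and 9 of 12. The gene that was lower was *Tfrc*, the transferrin receptor, at -1 (edgeR adjusted p = 0.00254) with LPS and -0.67 (edgeR adjusted p = 0.0273) with LPS/IFNγ. *Il12b*, a subunit of interleukins 12 and 23, averaged 1.078 normalized counts in PBS-treated BMDMs, 35280 ± 2794 with dsHMGB1, 77220 ± 3167 with LPS and 218900 ± 8720 with LPS/IFNγ, and was higher with LPS/IFNγ than with LPS by 1.5 log2 units (edgeR adjusted p = 0.00223). In that comparison 9 of the 13 were lower, where 9.36% of all genes were. *Rel* and *Tfrc* had 0.69 (edgeR adjusted p = 0.0592) and 0.33 (edgeR adjusted p = 0.345) and were called higher without PBS replicate 3 (edgeR adjusted p = 1.11e-05 and 0.0152). With frHMGB1, 5 of the 13 and 1.31% of all genes were higher than in PBS, among them *Zc3h12a* and *Nfkbiz* (1.36 log2 units, edgeR adjusted p = 0.00197). For Roquin, 7, 9 and 8 of 11 listed targets were higher with dsHMGB1, LPS and LPS/IFNγ and 3 with frHMGB1, *Zc3h12a* being 1 of them each time, beside 23.3%, 26.7%, 29% and 1.31% of all genes. *Icos* and *Tnfrsf4* had edgeR adjusted p of 0.576 or more against PBS in all 3 of the former comparisons. The 3 target lists share genes such as *Il6* and *Ptgs2*, so their counts are not independent.

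The proteins that switch TTP off or on and the enzymes it recruits were taken from further lists. *Mapkapk2*, the kinase known to phosphorylate and inactivate TTP, had 10890, 10720 and 11910 normalized counts in PBS, 96170, 84440 and 89310 in dsHMGB1 and 105700, 109600 and 114200 in LPS. It rose by 3.01 log2 units with dsHMGB1 (edgeR adjusted p = 4.96e-12), 3.30 with LPS and 2.59 with LPS/IFNγ. *Dusp1*, the phosphatase that turns off the kinase above it, rose by 1.86 with LPS (edgeR adjusted p = 2.75e-06) and had 0.18 (edgeR adjusted p = 0.498) with dsHMGB1 and 0.30 (edgeR adjusted p = 0.242) with LPS/IFNγ. Of the 12 kinases, phosphatases and 14-3-3 genes listed, 9 were higher and 1 lower with dsHMGB1, 11 higher with LPS and 8 higher with LPS/IFNγ, where 47.4%, 62.9% and 60.3% of all genes were called in either direction. With frHMGB1 the 1 gene called was *Mapkapk2* itself, at 0.29 (edgeR adjusted p = 0.0232), beside 7% of all genes. Between dsHMGB1 and LPS, 9 of the 12 and 10.6% of all genes were lower with dsHMGB1, *Dusp1* by 1.68 log2 units (edgeR adjusted p = 3.92e-05).

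Among 16 partners and modifiers of Regnase and Roquin, 10 were higher and 2 lower with dsHMGB1, and 11 higher and 4 lower with both LPS and LPS/IFNγ, beside 47.4%, 62.9% and 60.3% of all genes called. With frHMGB1 the 1 gene called was *Ikbke*, a kinase of the interferon pathway, at 0.49 (edgeR adjusted p = 0.00388), where 7% of all genes were called. *Malt1*, the protease known to cleave Regnase-1 and the Roquins, had 4127, 4380 and 1425 normalized counts in PBS, 42230, 54250 and 47950 in dsHMGB1, and 79800, 85360 and 82140 in LPS. It rose by 3.86 (edgeR adjusted p = 5.51e-07) with dsHMGB1, 4.64 with LPS and 4.65 with LPS/IFNγ on the log2 scale.

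Of 14 other AU-rich element binding genes, 10 were higher and 1 lower with dsHMGB1, 11 and 1 with LPS, and 12 and 1 with LPS/IFNγ, against shares of 47.4%, 62.9% and 60.3% called among all genes. *Arid5a*, whose product is known to stabilize *Il6* mRNA against Regnase-1, went from 451.9, 468.6 and 476.8 in PBS to 8697, 8240 and 8521 in dsHMGB1, a rise of 4.19 log2 units (edgeR adjusted p = 3.55e-13), and rose by 5.22 with LPS and 5.36 with LPS/IFNγ. The gene that was lower in all 3 was *Tia1*, a translational silencer (-0.47, -0.79 and -0.92).

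The genes called among the decay enzymes lay on both sides of PBS, and their shares can be read against the 47.4%, 62.9% and 60.3% of all genes called with dsHMGB1, LPS and LPS/IFNγ. Of 10 decapping and 5′ to 3′ decay genes, 3 were higher with dsHMGB1 (*Dcp2*, *Xrn1* and *Dcp1a*), 6 higher and 1 lower with LPS, and 7 higher and 1 lower with LPS/IFNγ. *Dcp2*, the decapping enzyme, went from 1810, 2225 and 1497 normalized counts in PBS to 11440, 14390 and 11590 in dsHMGB1 (2.76 log2 units, edgeR adjusted p = 5.59e-09). Of 18 deadenylase genes and adaptors, 4 were higher and 5 lower with dsHMGB1, 7 and 6 with LPS, and 8 and 4 with LPS/IFNγ. The highest was *Btg1* with dsHMGB1 (1.12) and *Cnot4* with LPS (1.79) and LPS/IFNγ (2.12), and the deadenylase subunit *Pan2* was lower with LPS by 1.42 log2 units. Of 14 exosome genes, 2 were higher and 2 lower with dsHMGB1, 1 and 3 with LPS, and 1 and 5 with LPS/IFNγ. With dsHMGB1, 30% of the decapping, 50% of the deadenylase and 28.6% of the exosome genes were called, with LPS 70%, 72.2% and 28.6%, and with LPS/IFNγ 80%, 66.7% and 42.9%.

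**Figure D4:**
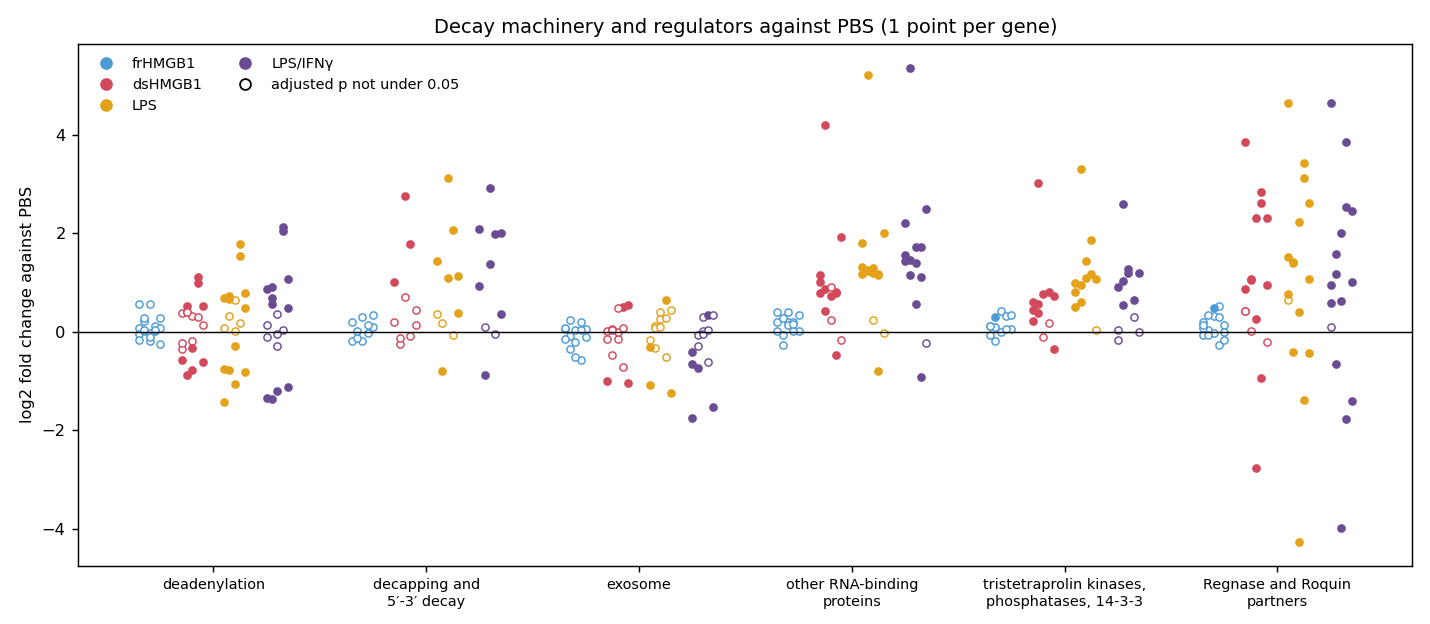
Log2 fold change against PBS of every gene in 6 lists of decay machinery and regulators, for the 4 stimuli, with 1 point for each gene. Points of the AU-rich element binding, kinase and partner lists lie mostly above 0 with dsHMGB1, LPS and LPS/IFNγ, whereas deadenylase and exosome genes spread to both sides.

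Without PBS replicate 3, more of the enzymes were called, as were more of all genes (58.8% rather than 47.4% with dsHMGB1 and 71.2% rather than 62.9% with LPS). With dsHMGB1 against PBS, 10 rather than 9 deadenylase genes, 7 rather than 3 decapping genes and 9 rather than 4 exosome genes were then called, while the TTP targets stayed at 15. With LPS against PBS the numbers were 16 rather than 13 deadenylase, 9 rather than 7 decapping and 8 rather than 4 exosome genes.

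Across the 15 libraries the members fell into opposed patterns. The Pearson correlation of log2 normalized counts was 0.94 between *Rc3h1* and *Rc3h2*, 0.93 between *Zfp36l1* and *Zfp36l2*, 0.91 between *Zc3h12a* and *Rc3h1*, and -0.76 between *Zfp36* and *Zfp36l1*. *Zc3h12d* followed none of the others closely, with values from -0.50 to 0.52. These are descriptions over libraries that share conditions and a cell pool. The protein-coding genes most alike to each member by the same measure were *Ikbkb* (0.991), *Il23a* (0.988) and *Plk2* (0.985) for *Zfp36*, and *Myo1g* (0.995), *Nup54* (0.994) and *Eif4e* (0.993) for *Zc3h12a*. For *Zc3h12c* they were *Nfxl1* (0.992), *Klf3* and *St3gal1* (0.991 each), for *Zfp36l1* *Mical1* and *Shc2* (0.991 each), and for *Zfp36l2* *Tmem64* (0.988). For *Rc3h1* the first was *Trip12* (0.989), for *Rc3h2* *Phip* (0.98), for *Zc3h12d* *Uhrf2* (0.981) and for the sparsely counted *Zc3h12b* *Elp4* (0.922).

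The stretches before the start sites of the members that moved most are shown to set the rising genes beside a falling one. RefSeq gave a window of 250 bases before and 50 after the start (GRCm38.p6) for 8 of the 9 members, 9 windows in all, and not for *Zfp36l2*. Of the 32851 windows of all genes, 50.8% held a loose NF-κB motif (GGG, any 5 bases, CC), 20.8% the CRE core TGACG, 13.6% the TATA box TATAAA, 8.3% the GAS motif TTCNNNGAA, 7.81% the AP-1 motif TGANTCA, 3.44% an ISRE motif (GAAA, any 2 bases, GAAA) and 1.63% the CArG box. Both strands were searched and motifs may overlap. Each line gives the 250 bases before the start, 5′ to 3′ on the gene's strand, with every match to any of these motifs in capitals.
*Zfp36*, chr7:28379229-28379478, minus strand: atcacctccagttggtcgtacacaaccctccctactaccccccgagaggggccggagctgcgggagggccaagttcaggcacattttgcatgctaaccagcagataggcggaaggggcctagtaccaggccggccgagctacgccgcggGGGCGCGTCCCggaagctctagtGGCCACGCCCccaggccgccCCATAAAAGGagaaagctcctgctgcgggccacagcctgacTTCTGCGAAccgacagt
*Zc3h12a*, chr4:125127882-125128131, minus strand: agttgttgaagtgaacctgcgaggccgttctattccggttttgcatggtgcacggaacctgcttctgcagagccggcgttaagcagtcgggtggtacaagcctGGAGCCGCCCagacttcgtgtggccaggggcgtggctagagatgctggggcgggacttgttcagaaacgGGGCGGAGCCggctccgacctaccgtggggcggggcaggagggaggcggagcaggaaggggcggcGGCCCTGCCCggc
*Zc3h12c*, first window, chr9:52149364-52149613, minus strand: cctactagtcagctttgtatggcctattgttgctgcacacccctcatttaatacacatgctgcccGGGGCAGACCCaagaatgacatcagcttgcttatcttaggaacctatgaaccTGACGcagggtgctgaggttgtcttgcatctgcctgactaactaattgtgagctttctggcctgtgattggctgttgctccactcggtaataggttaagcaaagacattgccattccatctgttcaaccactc
*Zfp36l1*, chr12:80113014-80113263, minus strand: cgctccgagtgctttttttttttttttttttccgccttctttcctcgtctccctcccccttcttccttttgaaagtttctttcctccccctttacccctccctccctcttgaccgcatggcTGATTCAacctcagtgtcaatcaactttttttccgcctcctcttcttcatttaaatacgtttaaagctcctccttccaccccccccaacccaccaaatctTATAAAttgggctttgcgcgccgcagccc
Counting the last base before the start as -1, the *Zfp36* stretch had NF-κB matches that begin at -101, -100 and -78, a CArG box at -58 and a GAS match at -17. *Zc3h12a* had NF-κB matches at -147, -78 and -13. The first window of *Zc3h12c* had NF-κB matches at -185 and -184 and a CRE core at -133, and its second window, at chr9:52168407-52168656, had NF-κB matches at -237, -236, -150 and -149. *Zfp36l1* had no NF-κB match in these letters, an AP-1 match at -129 and a TATA box at -29. With 50.8% of all windows holding the NF-κB motif, its presence does not set these genes apart, and a match or its absence says nothing of binding.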

How the data were processed

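Total RNA of the 15 cultures was turned into stranded mRNA libraries that were sequenced as paired ends on a NextSeq 2000, and per the labels and the study's methods the authors aligned the reads with STAR to GRCm38. The authors deposited raw read counts per Ensembl gene for all 15 libraries in 1 table. For the counting program and its gene annotation, nothing was stated (not given in the sources used here). GENCODE M21 named 51661 of the 51763 identifiers, and genes whose counts could be shared with a near-identical copy were not set apart. The treatment and replicate of each column were taken from the sample labels.

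Genes were kept by the filterByExpr function of edgeR (version 4.0.16, minimum count 10, minimum total 15), which left 16919, and tested in 1 quasi-likelihood fit over the 5 conditions with TMM scaling in R 4.3.3. p-values were adjusted by the Benjamini-Hochberg method over all genes tested, and a gene was called at an adjusted p under 0.05. Normalized counts, log2 fold changes and their standard errors are those of DESeq2 (version 1.42.0), without shrinkage, which the study also used. A log2 fold change of 2, the study's cut-off, was counted with no test. Shares within a family used normalized counts per kb of annotated exon. In data simulated on these libraries the test recovered 5.97% to 7.46% of genes changed 1.5-fold in the 4 comparisons with PBS. It recovered 35.8% to 40.3% of those changed 2-fold and 72.7% to 83.3% of those changed 4-fold. Of 16919 genes there, only 67, 67 and 66 were changed by these amounts. In the real libraries 7% to 62.9% of genes were called against PBS, and recovery with that many changed was not tested. Small differences can be missed.

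The members, the lists of targets, partners and markers and the rule for naming list genes (the 2 highest and 2 lowest log2 fold changes among those called in a comparison) were chosen with earlier results of these data known. List genes named outside that rule, such as *Tnf*, *Il23a*, *Csf2*, *Il12b*, *Nfkbiz*, *Myc*, *Plk3*, *Icos* and *Tnfrsf4*, were chosen after their values were seen, and 1 listed gene that the rule names is not reported here. Same-numbered replicates carry no shared origin in the labels. Alternatives were other normalizations, filters and tests, protein-coding genes alone, each pair of conditions alone, a replicate block, each library left out, a cut-off of 1 and other gene lengths. Replicates of a condition differed by more than sampling noise (chi-square per degree of freedom 4.172 to 786.8). The values 712.7 and 786.8 came from the pairs with PBS replicate 3, and the next highest was 88.3. Each library was counted as a sample in the test, although all are technical replicates of 1 pool and not independent animals. Counts cover counting error only, and small values such as those of *Zc3h12b* are imprecise.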

Additional observations from a re-analysis of the deposited data

How the results depend on the processing

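Of 72 gene results (9 genes in 8 comparisons), 70 kept their direction and their side of the threshold with the DESeq2 Wald test, with RLE normalization, with the replicate block and without a filter on low counts, 67 with protein-coding genes alone, and 63 of 64 with a filter of 1 CPM in 3 libraries. With the 2 conditions fitted alone, 55 of 68 did, and the falls of *Zfp36l2* with dsHMGB1 (adjusted p = 0.0512) and LPS (0.0659), of *Zc3h12d* with LPS (0.197) and the rise of *Rc3h2* with dsHMGB1 (0.0921) were no longer called by edgeR. The number of members called with frHMGB1 against PBS, 2 in the report, was 1 without a filter on low counts, 0 with protein-coding genes alone and 0 with the 2 conditions fitted alone, where 3 and 2 had an unadjusted edgeR p under 0.05, and DESeq2 called 2. In the last setting 5 were called between dsHMGB1 and LPS and 8 between LPS/IFNγ and LPS. The cause was not tested.

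With a cut-off of 1 in place of 2, 7 members passed with dsHMGB1 and 7 with LPS/IFNγ against PBS, 7 between the HMGB1 forms, 2 for dsHMGB1 against LPS, 3 for dsHMGB1 against LPS/IFNγ and 2 for LPS/IFNγ against LPS. The counts of 7 include *Zc3h12b*. The shares within a family depend on the length used, in the order PBS, frHMGB1, dsHMGB1, LPS and LPS/IFNγ. Undivided by length, *Zc3h12a* held 44.6%, 46.5%, 39.4%, 72.9% and 71.1% and *Rc3h1* 64%, 65.1%, 62.9%, 70.4% and 66%. With the longest coding transcript, chosen after seeing the data, *Rc3h1* held 59.2%, 60.2%, 57.9%, 65.9% and 61.2%, *Zc3h12a* 83.1% with LPS/IFNγ, and *Zfp36* 28.6%, 89.7% and 78% with frHMGB1, LPS and LPS/IFNγ.

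Leaving out 1 library at a time, the members called numbered 2 to 4 for frHMGB1, 7 to 9 for dsHMGB1, 7 to 9 for LPS and 8 for LPS/IFNγ against PBS, 8 between the HMGB1 forms, 2 to 6 for dsHMGB1 against LPS, 3 to 7 for dsHMGB1 against LPS/IFNγ and 3 to 7 for LPS/IFNγ against LPS. These counts include *Zc3h12b*, which passed the filter only through PBS and frHMGB1. The highest counts for frHMGB1 and dsHMGB1 against PBS and for the last 3 comparisons came without PBS replicate 3, and the 3 between dsHMGB1 and LPS/IFNγ came without any 1 LPS/IFNγ library. Members past the cut-off, again counted with *Zc3h12b*, numbered 3 to 5 with dsHMGB1, 4 to 5 with LPS, 4 to 5 with LPS/IFNγ and 2 to 4 between the HMGB1 forms. The edgeR log2 fold change changed sign in 5 results that were not called: *Rc3h1* (-0.41 to 0.01, positive without PBS replicate 2) and *Zc3h12d* (-0.05 to 0.57, negative without PBS replicate 3) with frHMGB1 against PBS, and *Zfp36l1* (-0.23 to 0.10, positive without dsHMGB1 replicate 1), *Zc3h12b* (-0.19 to 0.75) and *Rc3h2* (-0.04 to 0.22, both negative without dsHMGB1 replicate 2) between dsHMGB1 and LPS.

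The deviations of same-numbered replicates had 1 of 30 correlations over 0.1 (-0.379 to 0.371). Both extremes were between PBS and dsHMGB1, with -0.379, 0.371 and -0.13 for replicates 1, 2 and 3, so their sign was not shared. All other pairs of conditions lay between -0.0585 and 0.0743. With the replicate block, *Rc3h1* with dsHMGB1 against PBS (0.48, edgeR adjusted p = 0.0256) and *Rc3h2* between dsHMGB1 and LPS/IFNγ (-0.39, edgeR adjusted p = 0.0226) were added, and no other call changed. Depth limits *Zc3h12b* alone among the members.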
